A study of Mus musculus with 9 samples.

Results

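The Tmem150 family of membrane proteins has 3 genes in the mouse, Tmem150a, Tmem150b and Tmem150c, and these are 3 of the 55851 genes measured here. They were taken by name from an RNA-sequencing table of lung cells. The family was chosen by the measured level of Tmem150a, which was high in challenged wild-type lungs only. That pattern of Tmem150a is therefore given as a description with no test, while Tmem150b and Tmem150c, which entered by name, were tested. All 3 passed the filter on low values, with mean levels over all libraries of 0.987 FPKM for Tmem150a, 1.05 FPKM for Tmem150b and 0.837 FPKM for Tmem150c. FPKM is a read count per kilobase of gene length, scaled to library size, so these levels can be set side by side. All are low: 26.2%, 27.4% and 23.3% of the 17716 genes tested had a lower mean than Tmem150a, Tmem150b and Tmem150c in that order.

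There were 9 libraries, all from female C57BL/6J mice, and each of 3 groups had 3. DJ-1 KO OVA mice are labelled as knockouts of DJ-1 (libraries DJ1_KO_OVA_263, DJ1_KO_OVA_266 and DJ1_KO_OVA_267) and were challenged with ovalbumin, the allergen of a common model of allergic airway inflammation. WT OVA mice (libraries 5, 6 and 9) were wild-type animals given the same challenge, and WT PBS mice (libraries 1, 2 and 3) were wild-type animals given phosphate-buffered saline. All libraries carry a time label of 7 weeks and hold RNA of the total cells of the lung. No group of knockout mice challenged with saline is in these libraries, so an effect of the genotype in challenged lungs cannot be told apart from one that is there without challenge. The labels do not say how the DJ-1 allele was made or whether a library holds 1 mouse, so the spread between libraries may be technical.

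Tmem150 proteins cross the membrane several times and belong to a superfamily with the DRAM proteins and with yeast Sfk1. TMEM150A, studied in human cells, works at the plasma membrane with the lipid kinase PI4KA and its EFR3 anchors, which keep up the supply of phosphoinositides there. TMEM150B, also called DRAM3, promotes autophagy in cultured cells, and Tmem150c, also called tentonin 3, has been tied to slowly inactivating currents after mechanical stimulation of mouse sensory neurons.

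Tmem150a carries the pattern described here and Tmem150b had its lowest mean in the knockout lungs, so the sequence around the annotated start of each is shown. Each window runs from 250 bases before to 50 bases after the start of the RefSeq gene on GRCm38.p6, in the direction of transcription, with every CG dinucleotide in capitals. The window of Tmem150a is chr6:72355233-72355532 on the plus strand and that of Tmem150b is chr7:4725202-4725501 on the minus strand.
Tmem150a: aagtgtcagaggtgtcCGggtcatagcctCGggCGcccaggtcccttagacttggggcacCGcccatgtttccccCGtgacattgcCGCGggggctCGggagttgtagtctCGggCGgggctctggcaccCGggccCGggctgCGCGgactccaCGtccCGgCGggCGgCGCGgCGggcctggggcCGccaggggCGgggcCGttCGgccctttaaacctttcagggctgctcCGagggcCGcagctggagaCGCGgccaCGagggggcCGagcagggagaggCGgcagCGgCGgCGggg
Tmem150b: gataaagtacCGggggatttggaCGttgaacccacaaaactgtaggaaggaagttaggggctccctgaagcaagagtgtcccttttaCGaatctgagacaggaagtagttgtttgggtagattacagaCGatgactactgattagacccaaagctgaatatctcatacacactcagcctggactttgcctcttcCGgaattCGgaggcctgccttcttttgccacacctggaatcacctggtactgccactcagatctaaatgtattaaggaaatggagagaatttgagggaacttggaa
CG reads the same on both strands. The Tmem150a window is GC-rich (74.7%) and holds 35 CG, more than 93.0% of the 32851 mouse promoter windows of 300 bases in the same RefSeq set. The Tmem150b window has a GC content of 46% and 6 CG, close to the median of 7 over all windows, 94.6% of which hold at least 1. The 3 overlapping windows of Tmem150c, one for each of its annotated starts, hold 13, 21 and 37 CG. No methylation, chromatin or factor binding was measured in these lungs, so the counts describe the sequence only.

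Tmem150a (ENSMUSG00000055912, chromosome 6, 72355447 to 72359762, plus strand, GRCm38) has 5 annotated transcripts with up to 8 exons. Its level was 0.113, 0.191 and 0.238 FPKM in DJ1_KO_OVA_263, DJ1_KO_OVA_266 and DJ1_KO_OVA_267, from 6, 7 and 9 reads. In WT OVA libraries 5, 6 and 9 it was 3.20, 2.28 and 2.20 FPKM, from 95, 81 and 67 reads. In WT PBS libraries 1, 2 and 3 it was 0.121, 0.0944 and 0.441 FPKM, from 4, 3 and 21 reads. Every WT OVA library lay above every other library, while DJ-1 KO OVA and WT PBS overlapped. The group means were 0.181 ± 0.0633 FPKM in DJ-1 KO OVA, 2.56 ± 0.553 FPKM in WT OVA and 0.219 ± 0.193 FPKM in WT PBS (SD, n = 3 each).

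Counting error alone, as exact Poisson 95% intervals, ran from 1.71 to 2.79 FPKM in WT OVA 9, the lowest challenged wild-type library. It ran from 0.273 to 0.675 FPKM in WT PBS 3, the highest of the other libraries. Such intervals cover the counting of reads only. Low genes change less on the log2(FPKM + 0.5) scale than in FPKM. On that scale the difference was -2.16 for DJ-1 KO OVA relative to WT OVA and 2.11 for WT OVA against WT PBS, a fold of 4.31 on that scale. For DJ-1 KO OVA relative to WT PBS it was -0.05.

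Among the 17716 genes tested, 566 (3.19%) had all 3 WT OVA libraries above the other 6. By the gap between the WT OVA mean and the higher of the other means on the log2(FPKM + 0.5) scale, Tmem150a stood second. The only gene above it was Krt13, a keratin of stratified epithelium, whose WT OVA libraries overlapped the others. Krt13 averaged 12.9 FPKM in WT OVA, 0.0106 FPKM in DJ-1 KO OVA and 0.0603 FPKM in WT PBS. Mt4, at rank 3, averaged 9.99 FPKM in WT OVA and 0 in both other groups. Krtdap, at rank 6, averaged 7.36 FPKM in WT OVA, 0.0486 FPKM in DJ-1 KO OVA and 0 in WT PBS. The WT OVA libraries of Mt4 and Krtdap also overlapped the others. As background for the other genes, the share of the 17716 called for WT OVA against WT PBS at an adjusted p under 0.05 (limma) was 0.00564%, a single gene, and 1146 genes (6.47%) had an unadjusted p under 0.05. The single gene is Tmem150a itself. Since it was picked for this contrast, nothing is read from its call. The 0.00564% set beside later counts holds no other gene. The 6.47% covers this comparison only. For the comparisons of DJ-1 KO OVA the share at an unadjusted p under 0.05 is not given here. Unadjusted counts in those comparisons thus stand without a background.

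**Figure D1:**
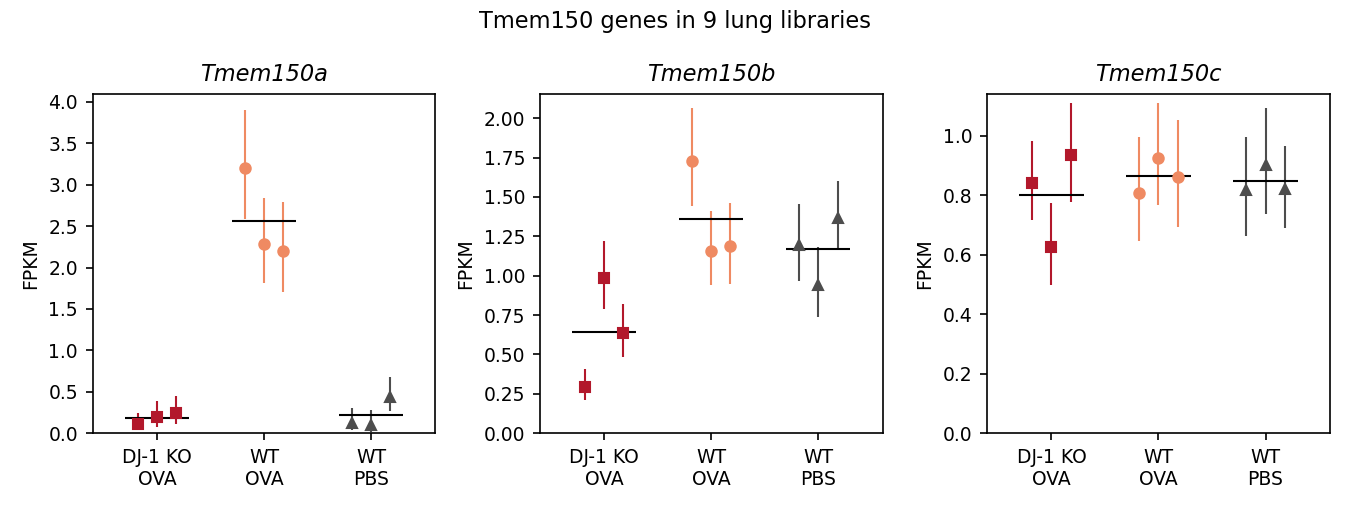
Levels of the 3 Tmem150 genes in FPKM (linear axes) by group. Each point is a library with its exact Poisson 95% interval for counting error, and each horizontal line is a group mean (n = 3). Tmem150a sits between 2.20 and 3.20 FPKM in WT OVA and at or below 0.441 FPKM elsewhere, Tmem150b is lowest in DJ1_KO_OVA_263, and Tmem150c stays between 0.625 and 0.935 FPKM throughout.

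The make-up of the family restates this pattern, since Tmem150a, chosen for its level, is part of the sum. Tmem150a made up 9.01% to 13.1% of the summed FPKM of the 3 genes in DJ-1 KO OVA, 51.8% to 55.8% in WT OVA and 4.87% to 16.8% in WT PBS. Across the 9 libraries, which share the group structure, Pearson's r on the log2 scale was 0.60 between Tmem150a and Tmem150b, 0.18 between Tmem150a and Tmem150c and -0.16 between Tmem150b and Tmem150c.

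In RNA of whole lung cells, fewer cells of a type and less RNA per cell cannot be told apart. Markers of lung cells were present: the 5 genes of alveolar type 2 cells summed to 6095 to 13237 FPKM in DJ-1 KO OVA, 32047 to 40857 FPKM in WT OVA and 24612 to 41350 FPKM in WT PBS. Single markers at 0 in some library were Pdpn (alveolar type 1), Pou2f3 (tuft), Epx (eosinophil), Ms4a2 (mast cell) and Snap25 (neuron). In none of the 22 marker lists was the summed FPKM of every WT OVA library above all 6 other libraries. No list covered stratified epithelium, the tissue of Krt13, or skeletal muscle, so the part of such cells in the level of Tmem150a was not tested. The 4 goblet cell markers summed to 1838, 957 and 1531 FPKM in DJ-1 KO OVA, 594, 69.1 and 538 FPKM in WT OVA and 6.45, 19.9 and 7.37 FPKM in WT PBS. That order across groups is unlike the order of Tmem150a. Park7, which encodes DJ-1, averaged 5.08 ± 1.92 FPKM in DJ-1 KO OVA, 57.2 ± 3.78 FPKM in WT OVA and 46.7 ± 8.91 FPKM in WT PBS (SD, n = 3 each). It was thus low in the libraries labelled knockout, with 241 to 427 reads left in each. Depth ran from 20812192 to 29080130 recovered reads a library.

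The place of Tmem150a in the genome bears on how its reads were counted. Its last 49 bases (72359714 to 72359762), all untranslated, are shared with exons of Rnf181, an E3 ubiquitin ligase gene on the opposite strand. The sources used here do not state if reads were counted by strand. Rnf181 had 0.701, 1.08 and 1.43 FPKM in DJ-1 KO OVA, 1.17, 4.88 and 1.48 FPKM in WT OVA and 0.884, 11.7 and 0.819 FPKM in WT PBS. Of its 2 highest libraries, WT OVA 6 was also high in Tmem150a, while WT PBS 2 had the lowest Tmem150a of all, and r between both genes was 0.05.

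Tmem150a also lies in a stretch of 134949 bases from Sftpb to Mat2a, singled out with its 9 genes after the values were seen. Mean levels over all libraries were 0.82 FPKM for Usp39, a splicing factor, 0.476 FPKM for the SNARE gene Vamp5, 0.461 FPKM for Ggcx, the vitamin K-dependent carboxylase, and 4.75 FPKM for Mat2a, which makes S-adenosylmethionine. Beyond the stretch levels were high and low. The actin-capping gene Capg averaged 123 FPKM and Tgoln1, of the trans-Golgi network, 58.0 FPKM. Retsat averaged 7.31 FPKM, Elmod3 3.44 FPKM and Atoh8 2.43 FPKM. Gm45053, Sh2d6 and Particl averaged 0.166, 0.0429 and 0.0249 FPKM. The surfactant gene Sftpb averaged 58.7 FPKM on chromosome 6. An unnamed locus in the authors' table on a patch scaffold of the assembly (MG184), with start 72303814 and end 72317151, a span that covers the start and end of Sftpb (72304610 and 72314371), averaged 77.9 FPKM. Sftpb had 47.7, 27.1 and 17.8 FPKM in DJ-1 KO OVA, and the patch locus 58.8, 38.0 and 25.9 FPKM. In WT OVA they had 65.5, 76.4 and 44.9 FPKM, against 90.7, 109.8 and 55.6 FPKM, and in WT PBS 71.8, 86.3 and 90.6 FPKM, against 99.1, 110.2 and 112.8 FPKM. The libraries thus fell in the same order within each group for both. The table has 107 such loci on patch or alternative scaffolds. How reads that match both a chromosome and a patch were counted is a step the sources used here do not state. The table shows no locus on this patch beyond the one at Sftpb, so whether the patch reaches Tmem150a is not known here. If it does, and if reads matching both were left out, the FPKM printed for Tmem150a would be a remainder of its reads. Its part in the levels of Tmem150a was not tested.

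**Figure D2:**
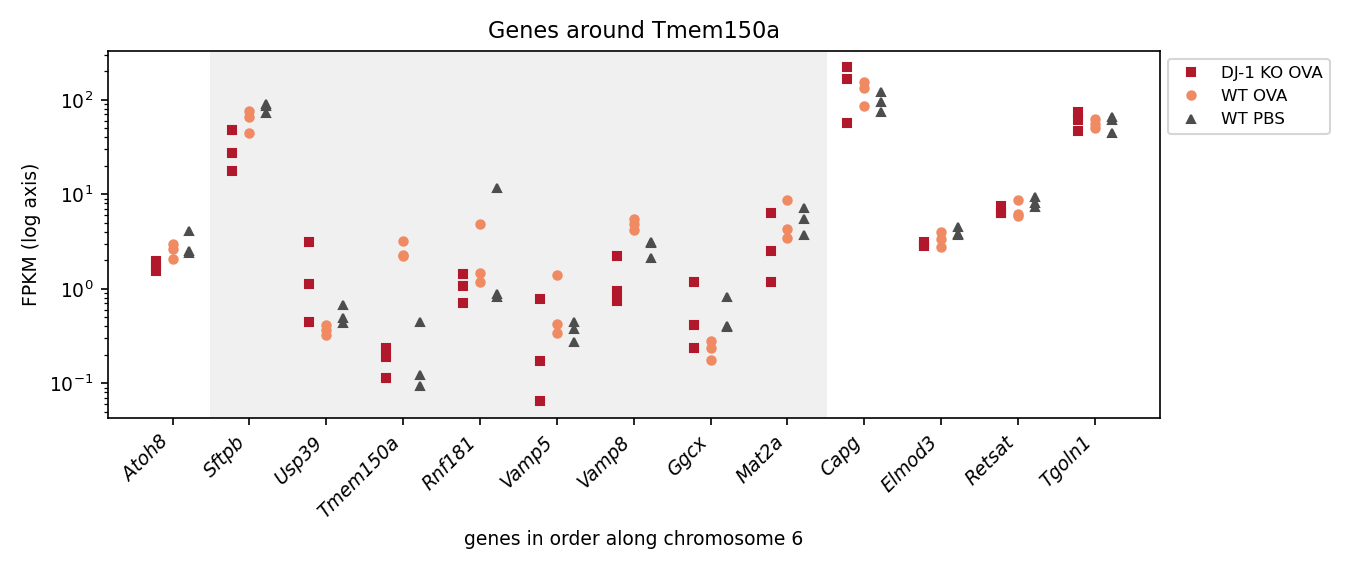
Levels (FPKM, log axis) of genes in their order along chromosome 6 around Tmem150a, 1 point per library. The grey band is the stretch from Sftpb to Mat2a; within it Rnf181 reaches 11.7 FPKM in a single WT PBS library, and the 3 WT OVA points of Tmem150a stand apart from its other 6.

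Of the 7 tested neighbours of Tmem150a within 100 kb, 0 were called for WT OVA against WT PBS, against a background of 0.00564%; 1 had an unadjusted p under 0.05 and limma-voom called 0. Of the same 7, 1 was called in DJ-1 KO OVA relative to WT OVA, beside 14.2% of all genes. That gene was Vamp8, a SNARE of endosomal fusion. Vamp8 had 0.742, 2.22 and 0.938 FPKM in DJ-1 KO OVA, 4.82, 4.15 and 5.48 FPKM in WT OVA and 3.04, 3.14 and 2.11 FPKM in WT PBS. Every WT OVA library lay above the other 6, as for Tmem150a and for 3.19% of all genes, and r between Vamp8 and Tmem150a over the 9 libraries, as a description, was 0.72. The difference for DJ-1 KO OVA relative to WT OVA was -1.64 on the log2(FPKM + 0.5) scale (adjusted p = 0.011, limma; 0.055 without DJ1_KO_OVA_267), and that for WT OVA against WT PBS was 0.71 (adjusted p = 0.73, limma). For DJ-1 KO OVA relative to WT PBS, where 8.54% of all genes were called, 1 of 7 was called. Lower calls made up 4.47% of all genes. The gene was Sftpb, with a log2 difference of -1.52 (adjusted p = 0.023, limma; up to 0.090 with other settings).

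Tmem150b (ENSMUSG00000046456, chromosome 7, 4706832 to 4725249, minus strand, GRCm38) had its lowest mean in the knockout lungs. Its level was 0.296, 0.987 and 0.635 FPKM in DJ1_KO_OVA_263, DJ1_KO_OVA_266 and DJ1_KO_OVA_267, from 38, 87 and 58 reads. It was 1.73, 1.16 and 1.19 FPKM in WT OVA libraries 5, 6 and 9, from 124, 99 and 87 reads, and 1.19, 0.940 and 1.37 FPKM in WT PBS libraries 1, 2 and 3, from 95, 72 and 157 reads. Every DJ-1 KO OVA library lay below every WT OVA library, as in 18.8% of all genes tested, while DJ1_KO_OVA_266 lay above WT PBS 2. Means were 0.639 ± 0.346 FPKM in DJ-1 KO OVA, 1.36 ± 0.323 FPKM in WT OVA and 1.17 ± 0.215 FPKM in WT PBS (SD, n = 3 each).

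Tmem150b differed by -0.74 in DJ-1 KO OVA relative to WT OVA, on the log2(FPKM + 0.5) scale (SE 0.25, 95% interval -1.29 to -0.18). It did not pass the adjustment over all genes (adjusted p = 0.069, limma). Adjusted p ran from 0.016 to 0.30 over the 18 alternatives, passing without DJ1_KO_OVA_266 (difference -0.95, adjusted p = 0.016) and with limma-voom on the recovered reads (difference -1.27, adjusted p = 0.048). Against WT PBS the difference was -0.59 (adjusted p = 0.17, limma), and -0.80 without DJ1_KO_OVA_266 (adjusted p = 0.042). WT OVA and WT PBS differed by 0.15, with a 95% interval from -0.40 to 0.71 (adjusted p = 0.88, limma), so a fold between 0.755 and 1.63 is within the error.

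The DJ-1 KO OVA libraries differed among themselves in Tmem150b by more than counting error: the 95% intervals were 0.209 to 0.406 FPKM in DJ1_KO_OVA_263 and 0.791 to 1.22 FPKM in DJ1_KO_OVA_266. Of the 22 marker lists, 9 had summed levels in the same order, lowest in DJ1_KO_OVA_263 and highest in DJ1_KO_OVA_266, and the others did not. The lists named here were picked after their values were seen. Endothelial markers summed to 17.3, 128 and 38.2 FPKM in DJ1_KO_OVA_263, DJ1_KO_OVA_266 and DJ1_KO_OVA_267, and neutrophil markers to 1249, 4063 and 1282 FPKM. B cell markers summed to 81.8, 212 and 86.5 FPKM, ciliated cell markers to 53.4, 148 and 62.4 FPKM, and the FPKM of all genes to 308542, 472548 and 383287. No marker of these lists was at 0 in any library. Among the lists with another order, T cell markers summed to 211, 54.7 and 60.3 FPKM in DJ1_KO_OVA_263, DJ1_KO_OVA_266 and DJ1_KO_OVA_267, and fibroblast markers to 329, 258 and 513 FPKM. Alveolar macrophage markers summed to 10334, 23342 and 31472 FPKM and alveolar type 2 markers to 12855, 13237 and 6095 FPKM. In WT OVA the first 4 lists summed to 94.1, 77.0 and 116 FPKM for endothelium, 13976, 12217 and 18218 FPKM for neutrophils, 353, 264 and 324 FPKM for B cells and 315, 345 and 292 FPKM for ciliated cells. In WT PBS they summed to 80.3, 111 and 129 FPKM for endothelium, 14939, 23182 and 7821 FPKM for neutrophils, 337, 291 and 331 FPKM for B cells and 252, 293 and 171 FPKM for ciliated cells. Their part in the level of Tmem150b was not tested.

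Of the 3732 exon bases of Tmem150b, 28.2% (1054 bases, of which 1048 untranslated) overlap exons of Brsk1, a kinase gene on the opposite strand, so part of the reads could belong to either. Brsk1 averaged 0.440 ± 0.153 FPKM in DJ-1 KO OVA, 0.629 ± 0.0728 FPKM in WT OVA and 0.633 ± 0.111 FPKM in WT PBS (SD, n = 3 each), with no call in any of the 3 comparisons. Of the 12 tested neighbours of Tmem150b within 100 kb, 3 were called for DJ-1 KO OVA relative to WT OVA, beside 14.2% of all genes, and 0 for the other comparisons (8.54% and 0.00564% of all genes), in each of which 2 had an unadjusted p under 0.05; limma-voom called 4 in the first and 1 in DJ-1 KO OVA relative to WT PBS. Tmem238 (-1.43, adjusted p = 0.016) and Cox6b2, a subunit of cytochrome c oxidase (-1.20, adjusted p = 0.020), were lower, and Tmem86b, which breaks down lysoplasmalogens, was higher (1.19, adjusted p = 0.025, limma). Of the 18 alternatives, the call was lost in 4 for Tmem238, in 7 for Cox6b2 and in 7 for Tmem86b. All 3 calls were lost without DJ1_KO_OVA_267 (adjusted p = 0.066, 0.086 and 0.085 in that order of genes, limma), which gave the highest adjusted p for each, and without each WT OVA library, and those of Cox6b2 and Tmem86b also without DJ1_KO_OVA_263 (0.0503 and 0.058). The nearest other tested genes, Kmt5c, a histone methyltransferase, and Hspbp1, a partner of Hsp70, had differences of 0.30 and -0.34 and were not called (adjusted p = 0.28 and 0.43, limma).

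Tmem150c (ENSMUSG00000050640, chromosome 5, 100077872 to 100159808, minus strand, GRCm38) had overlapping levels in the 3 groups. Its level was 0.842, 0.625 and 0.935 FPKM in DJ-1 KO OVA, from 161, 82 and 127 reads. It was 0.806, 0.927 and 0.860 FPKM in WT OVA, from 86, 118 and 94 reads, and 0.817, 0.903 and 0.820 FPKM in WT PBS, from 97, 103 and 140 reads. The group means were 0.801 ± 0.159, 0.865 ± 0.0604 and 0.847 ± 0.0489 FPKM in DJ-1 KO OVA, WT OVA and WT PBS (SD, n = 3 each), with the widest spread in DJ-1 KO OVA.

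The difference in Tmem150c was -0.08 for DJ-1 KO OVA relative to WT OVA (95% interval -0.46 to 0.31, adjusted p = 0.78, limma). It was -0.06 for DJ-1 KO OVA relative to WT PBS (-0.44 to 0.33, adjusted p = 0.86) and 0.02 for WT OVA against WT PBS (-0.37 to 0.40, adjusted p = 0.98). Taken as folds on that scale, the intervals run from 0.727 to 1.24, from 0.736 to 1.25 and from 0.776 to 1.32. Folds inside these ranges are within the error with 3 libraries a group. The smallest change that could be called was not computed. The sign of each of these small differences turned with another scaling. Tmem150cos, an antisense RNA whose exons share 212 bases with those of Tmem150c, had at most 2 reads in a library. Of the 5 tested neighbours of Tmem150c within 100 kb, 0 were called in any comparison, with at most 2 at an unadjusted p under 0.05 and 0 called by limma-voom. Of all genes, 14.2% were called for DJ-1 KO OVA relative to WT OVA, 8.54% relative to WT PBS and 0.00564% for WT OVA against WT PBS. With 5 genes, a count of 0 is not read as a result. The nearest, Enoph1, an enzyme of methionine salvage, averaged 8.92 ± 1.88 FPKM in DJ-1 KO OVA, 7.21 ± 0.192 FPKM in WT OVA and 6.04 ± 0.726 FPKM in WT PBS (SD, n = 3 each). In DJ-1 KO OVA relative to WT OVA, the RNA-binding protein gene Hnrnpdl differed by -0.31, the pseudogene Gm8091 by -0.86 (adjusted p = 0.083, limma) and the noncoding Gm17092 by 0.22.

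**Figure D3:**
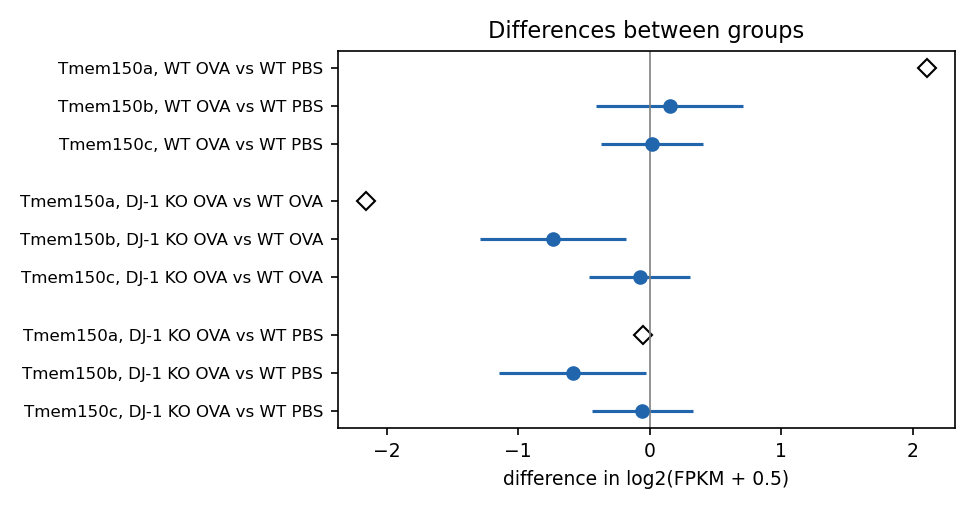
Differences in log2(FPKM + 0.5) for each Tmem150 gene in the 3 comparisons. Filled circles are limma estimates with 95% intervals for Tmem150b and Tmem150c; open diamonds are the differences of Tmem150a, which was chosen for this pattern and has no interval. Tmem150a stands at 2.11 and -2.16, while Tmem150c stays within 0.08 of 0.

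The nearest relatives of the family outside it are Dram1, Dram2 and Pgap2. Of these, 0 of 3 were called for WT OVA against WT PBS, beside 0.00564% of all genes. In DJ-1 KO OVA relative to WT PBS, where 8.54% of all genes were called, 0 of 3 were. At an unadjusted p under 0.05 there were 0 and 3 in these comparisons, and limma-voom called 0. The share of all genes at that p is not given here for the second comparison, so the 3 are not read as a result. In DJ-1 KO OVA relative to WT OVA 1 of 3 was called, where 8.24% of all genes were called lower. Dram2, a lysosomal membrane protein of autophagy, had 11.2, 15.2 and 14.2 FPKM in DJ-1 KO OVA, 23.9, 26.9 and 31.7 FPKM in WT OVA and 18.4, 28.3 and 15.1 FPKM in WT PBS. All DJ-1 KO OVA libraries were below all WT OVA libraries, as in 18.8% of all genes tested, while WT OVA and WT PBS overlapped. The difference between the OVA groups was -0.999 (adjusted p = 0.030, limma). The Dram2 call was lost with 8 of the 18 alternatives (adjusted p up to 0.15). Dram1, a p53 target that promotes autophagy, averaged 65.6 ± 12.3 FPKM in DJ-1 KO OVA, 105 ± 20.98 FPKM in WT OVA and 93.7 ± 11.8 FPKM in WT PBS; its difference of -0.67 between the OVA groups was not called (adjusted p = 0.072). Pgap2, which remodels GPI anchors, averaged 9.65 ± 3.65, 6.12 ± 0.844 and 5.72 ± 1.16 FPKM in DJ-1 KO OVA, WT OVA and WT PBS (SD, n = 3 each) and was not called.

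TMEM150A acts with the PI4KA complex, of which 7 mouse genes were listed and all were tested. For WT OVA against WT PBS, the comparison in which Tmem150a was high, 0 of 7 were called (2 at an unadjusted p under 0.05; 0 by limma-voom) and their median difference was -0.23, beside 0.00 over all genes. Among the 7, 1 was called higher in DJ-1 KO OVA relative to WT OVA, where 5.93% of all genes were; the median was 0.47 and limma-voom called 3. For DJ-1 KO OVA relative to WT PBS 1 of 7 was called, higher, where 4.07% were; the median was 0.12. The called gene was Pi4ka, the kinase itself, in both. Pi4ka had 9.27, 8.14 and 13.8 FPKM in DJ-1 KO OVA, 4.15, 4.14 and 4.09 FPKM in WT OVA and 3.70, 3.10 and 5.60 FPKM in WT PBS. All DJ-1 KO OVA libraries were above all others, as were 18.4% of genes relative to WT OVA and 12.7% relative to WT PBS, and the wild-type groups overlapped. The difference was 1.20 against WT OVA (95% interval 0.66 to 1.75, adjusted p = 0.018) and 1.24 against WT PBS (0.69 to 1.78, adjusted p = 0.016, limma). It was lost without DJ1_KO_OVA_267, with adjusted p = 0.074 and 0.063. It was also lost without any single WT OVA library for the first (adjusted p = 0.057 to 0.062, limma). For the second it was also lost without WT PBS 1 or 2 (0.067 and 0.065) and with only the 2 groups (0.054).

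The anchor Efr3a averaged 5.84 ± 1.61 FPKM in DJ-1 KO OVA, 3.32 ± 0.0978 FPKM in WT OVA and 3.69 ± 0.221 FPKM in WT PBS (SD, n = 3 each), and its difference of 0.70 between the OVA groups missed the threshold (adjusted p = 0.0504, limma). The paralogous anchor Efr3b averaged 0.388, 0.179 and 0.318 FPKM in DJ-1 KO OVA, WT OVA and WT PBS. Of the scaffold proteins, Ttc7 averaged 24.2 ± 6.54, 28.7 ± 3.43 and 42.5 ± 6.42 FPKM in these groups, with a difference of -0.82 for DJ-1 KO OVA relative to WT PBS that was not called (adjusted p = 0.053, limma). Ttc7b averaged 3.45, 2.33 and 3.56 FPKM in DJ-1 KO OVA, WT OVA and WT PBS. The stabilising subunits Fam126a and Fam126b averaged 2.91, 1.95 and 2.37 FPKM and 1.12, 1.48 and 1.17 FPKM in the same groups, with no call.

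**Figure D4:**
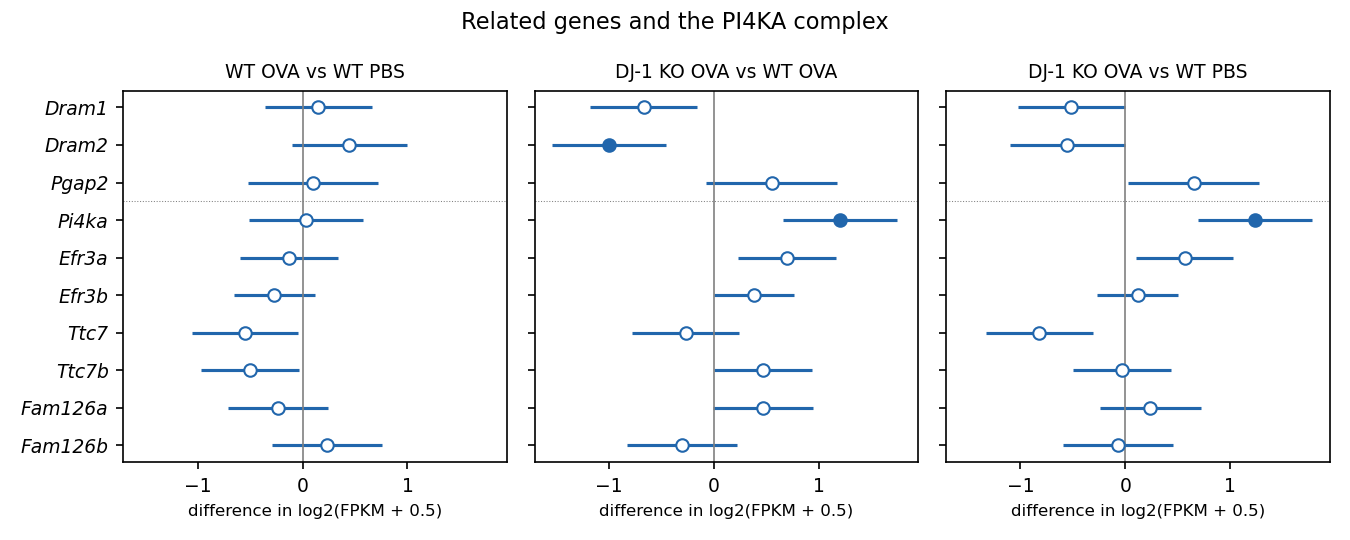
Differences in log2(FPKM + 0.5), with 95% limma intervals, for the 3 superfamily relatives (above the dotted line) and the 7 PI4KA complex genes (below it) in each comparison. Filled circles passed an adjusted p of 0.05 over all genes: Dram2 in DJ-1 KO OVA relative to WT OVA (-0.999) and Pi4ka in both comparisons of DJ-1 KO OVA (1.20 and 1.24).

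Of the other phosphoinositide kinases and phosphatases, 30 of 31 were tested; 0 were called for WT OVA against WT PBS and for DJ-1 KO OVA relative to WT PBS, and 2 were called in DJ-1 KO OVA relative to WT OVA, both higher. In each of the first pair of comparisons 3 had an unadjusted p under 0.05 and limma-voom called 0. Of all genes, 0.00564% and 8.54% were called in that pair. Pip4k2b, a phosphatidylinositol phosphate kinase, averaged 10.8 ± 1.75 FPKM in DJ-1 KO OVA, 5.10 ± 0.461 FPKM in WT OVA and 6.88 ± 1.49 FPKM in WT PBS (1.00 between the OVA groups, adjusted p = 0.018). Fig4, a phosphatase of the endosomal phosphoinositide cycle, averaged 13.8 ± 1.12, 8.28 ± 0.873 and 9.38 ± 1.58 FPKM in the same order (0.70 between the OVA groups, adjusted p = 0.035, limma). The call was lost in 4 of 18 alternatives for Pip4k2b (adjusted p up to 0.080, limma), namely without DJ1_KO_OVA_267 and without each WT OVA library. It was lost in 8 for Fig4 (up to 0.11), among them the same 4 and those without DJ1_KO_OVA_263 (0.080) and without WT PBS 1 (0.060). The share called, 6.67%, all higher, stood beside 5.93% of all genes called higher and 14.2% called in either direction.

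Tmem150b and the DRAM proteins bear on autophagy, for which 28 of 29 listed core genes were tested. Again 0 were called for WT OVA against WT PBS (1 at an unadjusted p under 0.05; 0 by limma-voom), and 1 was called in each comparison of DJ-1 KO OVA, a share of 3.57% beside 14.2% of all genes relative to WT OVA and 8.54% relative to WT PBS. Relative to WT OVA 11 had an unadjusted p under 0.05 and limma-voom called 2, and relative to WT PBS 7 and 1. With a library left out, 0 to 10 and 0 to 6 were called, so the low share is not read as a result. The gene called in both comparisons was Map1lc3a, an LC3 protein of the autophagosome membrane. Map1lc3a had 35.9, 60.2 and 33.4 FPKM in DJ-1 KO OVA, 113, 125 and 89.3 FPKM in WT OVA and 105, 108 and 84.0 FPKM in WT PBS. In DJ-1 KO OVA it fell by 1.36 on the log2(FPKM + 0.5) scale relative to WT OVA (adjusted p = 0.015) and by 1.23 relative to WT PBS (adjusted p = 0.020, limma), with no overlap in either (as in 18.8% and 12.9% of genes). Both calls were lost without DJ1_KO_OVA_267 (adjusted p = 0.069 and 0.089, limma). The first was also lost without WT OVA 5 or 6 (0.055 and 0.059). The second was also lost without WT PBS 1 or 2 (0.084 and 0.076) and with only the 2 groups (0.056).

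Of 14 listed mechanosensitive channels and modulators, the setting in which Tmem150c is known, 9 were tested and 0 were called in any comparison, by either tool, beside 14.2%, 8.54% and 0.00564% of all genes for DJ-1 KO OVA relative to WT OVA and to WT PBS and for WT OVA against WT PBS; at an unadjusted p under 0.05 there was 1, in DJ-1 KO OVA relative to WT PBS. The most abundant, Tmem120a, averaged 19.5 ± 10.1 FPKM in DJ-1 KO OVA, 30.6 ± 5.63 FPKM in WT OVA and 24.4 ± 6.12 FPKM in WT PBS. The ion channel Tmem63a averaged 12.9 ± 1.72, 14.1 ± 1.76 and 16.2 ± 2.19 FPKM in the same groups (SD, n = 3 each). Of 11 genes of TLR4 signalling, the lipopolysaccharide pathway, 2 (18.2%) were called for DJ-1 KO OVA relative to WT OVA, a share near the 14.2% of all genes, and 0 for the others (0 at an unadjusted p under 0.05 for WT OVA against WT PBS and 3 in DJ-1 KO OVA relative to WT PBS; 0 by limma-voom). The kinase Irak1 was higher (16.7 ± 3.00 and 9.92 ± 0.483 FPKM, difference 0.71, adjusted p = 0.047) and Ly96, the co-receptor MD-2, was lower (5.15 ± 2.12 and 11.4 ± 3.15 FPKM, difference -1.11, adjusted p = 0.049, limma). Both were lost under many alternatives, Irak1 in 8 and Ly96 in 11 of 18.

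The counts for DJ-1 KO OVA relative to WT OVA depend on the scaling between libraries. As deposited, 1051 genes were called higher and 1459 lower, and 4 and 3 in the 6 pathway lists together. With every library set to an equal sum of FPKM, which moved the median difference of all genes by 0.46, 4432 genes were called higher and 602 lower, and 34 and 1 in the lists. For DJ-1 KO OVA relative to WT PBS that scaling moved the median by 0.24 and for WT OVA against WT PBS by -0.22.

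Of 14466 named genes tested, those most like Tmem150a over the 9 libraries by Pearson's r on the log2 scale were Acta1 (0.91), Cd99l2 (0.91), Mlana (0.90), S100b (0.90), Foxo6 (0.88), Cfap77 (0.88), Fxyd3 (0.88) and Tmod4 (0.87). In each of the 8 the lowest WT OVA library was above the highest of the other 6, a pattern that the way they were picked favours. Most were low: Acta1, skeletal muscle actin, averaged 0.106 ± 0.0289 FPKM in DJ-1 KO OVA, 0.727 ± 0.312 FPKM in WT OVA and 0.247 ± 0.0902 FPKM in WT PBS. Fxyd3, a regulator of the sodium pump, averaged 2.35 ± 0.722, 4.53 ± 0.301 and 2.16 ± 0.169 FPKM in these groups, and the adhesion gene Cd99l2 5.06 ± 0.136, 6.86 ± 0.0498 and 5.61 ± 0.202 FPKM (SD, n = 3 each). Those most like Tmem150b were Tmem158 (0.98), Nudt18 (0.97), Cln6 (0.96), Emd (0.96) and Pim3 (0.96). Pim3, a serine/threonine kinase, averaged 86.7 ± 38.3 FPKM in DJ-1 KO OVA, 166 ± 31.7 FPKM in WT OVA and 147 ± 20.4 FPKM in WT PBS. Those most like Tmem150c were the pseudogene Cbx3-ps7 (0.95), Nox4 (0.95), Pgap1 (0.94), Mob1b (0.92) and Cped1 (0.90). These values describe 9 libraries that share their group structure.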

How the data were processed

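RNA of total lung cells was sequenced in 9 libraries, 3 a group, from TRIzol-extracted RNA and an Illumina TruSeq kit, per the labels' protocols. Trimmomatic, HISAT2 and HTSeq were run with GRCm38.p6, per the submitters' processing notes, and the authors deposited FPKM for 55851 genes, per the file headers. FPKM multiplied by gene length gave whole reads, within 0.01, for 100% of values. The library sizes in the deposited FPKM equalled median-of-ratios size factors of these reads.

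Genes with a mean FPKM of 0.2 or more (17716) were analysed on the log2(FPKM + 0.5) scale. A single limma-trend fit over the 9 libraries (limma 3.58.1, R 4.3.3) gave the 3 comparisons, with Benjamini-Hochberg adjustment over all genes and calls at an adjusted p below 0.05. With 3 libraries a group, the smallest two-sided p of an exact permutation test is 0.1. The fit was tested on simulated data. Intervals for single libraries are exact Poisson 95%. Gene models came from GENCODE M21, in which 99.5% of the 55154 shared genes have the table's position.

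The members, gene lists and tests were chosen with earlier results of these data known. Named were every gene of lists of up to 7, otherwise up to 4 called genes with the smallest p, or with none called the 2 most abundant; the genes most like each member (8, 5 and 5, without predicted genes); and overlapping or nearest neighbours. Leaving out unnamed loci from the genes most alike was chosen after the values were seen; 1 of them would have led for Tmem150a (r = 0.94).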

Additional observations from a re-analysis of the deposited data

How the results depend on the processing

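No paired analysis was possible because the groups share no replicate numbers. Alternatives changed the pseudocount (0.1 or 1), the filter (none, or a mean FPKM of at least 1), the scaling (equal FPKM sums or quantile normalization), the variance model (robust), the samples (only the 2 groups compared) and the test (limma-voom on recovered reads), or left out each library in turn. The filter at 1 removed Tmem150a and Tmem150c.

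Tmem150a kept its order of groups for both comparisons with WT OVA in its 17 alternatives. Its difference for DJ-1 KO OVA relative to WT OVA was -3.25 with a pseudocount of 0.1, -1.58 with 1, -1.84 with equal sums and -3.81 with limma-voom, and for WT OVA against WT PBS 3.20, 1.55, 1.84 and 3.66. Leaving out a library gave -2.24 to -2.01 and 1.96 to 2.32, and for DJ-1 KO OVA relative to WT PBS -0.17 to 0.16. Tmem150b for DJ-1 KO OVA relative to WT OVA was -1.27 with limma-voom and -0.95 to -0.50 with a library left out. The sign stayed the same in all 18 alternatives. Its size with equal sums, which moved the median of all genes by 0.46 in this comparison, is not given here. Tmem150b was -0.80 to -0.35 against WT PBS with a library left out, and for WT OVA against WT PBS 0.01 to 0.24, turning to -0.0795 with equal sums. Tmem150c turned sign with equal sums, to 0.32 and 0.15 for DJ-1 KO OVA relative to WT OVA and WT PBS and to -0.17 for WT OVA against WT PBS, and with quantile normalization to -0.0299 for the last. With a library left out it ran from -0.15 to 0.025, -0.13 to 0.0436 and -0.0141 to 0.0496: it turned to 0.025 and 0.0436 without DJ1_KO_OVA_266 and to -0.0141 without WT OVA 6. The cause of these turns was not tested.

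The count of genes called for DJ-1 KO OVA relative to WT OVA (2510) was 5034 with equal sums, 645 with no filter and 1131 with only the 2 groups, and 286 to 5694 with a library left out, lowest without DJ1_KO_OVA_267 and highest without DJ1_KO_OVA_266. Against WT PBS (1513) it was 669 with no filter, 700 with only the 2 groups and 436 to 3897 with a library left out, lowest without WT PBS 1 and highest without DJ1_KO_OVA_266. For WT OVA against WT PBS (1) it was 2 with no filter and 0 with equal sums, limma-voom, a mean of at least 1, only the 2 groups, a pseudocount of 0.1 or quantile normalization, and 0 to 14 with a library left out, highest without WT OVA 6. In the 6 lists together, the 7 called for DJ-1 KO OVA relative to WT OVA became 35 with equal sums, 3 with no filter, 4 with only the 2 groups and 0 to 29 with a library left out. The 2 called against WT PBS became 4 with equal sums, 0 with only the 2 groups and 0 to 13. For WT OVA against WT PBS 0 were called in all 18. Few reads limit Tmem150a outside WT OVA, where a library held 3 to 21.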
